A study of Danio rerio with 6 samples.

Results

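In heads of zebrafish (Danio rerio) larvae, 114 genes of the mitochondrial respiratory chain and ATP synthase were measured. Members were chosen by name, as the genes whose symbol begins with nduf, sdha to sdhd, uqcr, cox4 to cox8 or atp5, or is a mitochondrial mt-nd, mt-co, mt-atp or mt-cyb gene. Of the 32520 genes counted, 115 had such a name, and 114 had at least 10 counts in at least 3 libraries. The remaining gene, ndufa4l2b, had 3, 1 and 11 counts in mutant replicates 1, 2 and 3 and 3, 6 and 4 counts in wild-type replicates 1, 2 and 3. Nuclear genes made up 101 of the 114 and mitochondrial genes 13. The nuclear set held 44 genes of complex I, 9 of complex II, 8 of complex III, 21 of complex IV and 19 of complex V, and the mitochondrial set held 7, 0, 1, 3 and 2 genes of the same complexes. Some chain genes carry other names in these data and lie outside the rule, among them COX5B, NDUFB1, ndufc1 and atp5mj.

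Larvae homozygous for srrm4[y712] (mutants) and wild-type siblings each gave 3 RNA libraries from heads at 3 days post fertilization, labelled replicate 1, 2 and 3. The Srrm4 protein favours splicing of very short neural exons, called microexons, and the title of the series concerns neural development in its mutants. The molecular change in y712, the larvae per library and any shared clutch or day of same-numbered libraries are not stated in the sources used here. P-values therefore measure only how far these libraries spread, which may in part be technical. Total counts were 52510621, 85364733 and 98353600 in mutant replicates 1, 2 and 3, and 75932582, 95887087 and 101032166 in wild-type replicates 1, 2 and 3. Levels are given as CPM, counts scaled to a common library size with trimmed mean of M-values (TMM) factors. CPM are not divided by transcript length, so a level is compared between libraries and never between genes.

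The respiratory chain moves electrons from NADH (complex I) and succinate (complex II) through coenzyme Q, complex III and cytochrome c to oxygen at complex IV. Complexes I, III and IV pump protons, and complex V, the ATP synthase, uses the returning protons to make ATP. All complexes but the second are built from subunits of both genomes. The mitochondrial genes encode core membrane subunits and are transcribed as long precursors that are cut into shorter messages. The other subunits are translated in the cytosol and imported. Muscle, photoreceptors and neurons are known for their heavy use of this pathway.

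Both replicate 1 libraries, 1 of each genotype, stood apart from the other 4 libraries, with muscle and trunk markers beside those of the labelled tissue, the head. Summed over 14 skeletal muscle markers, of which none was at 0, the level was 78524, 17833 and 12432 CPM in mutant replicates 1, 2 and 3, against 77868, 19793 and 11205 CPM in wild-type replicates 1, 2 and 3. Posterior Hox genes mark the trunk and tail. The 15 listed genes summed to 106, 18.9 and 14.9 CPM in the mutants and 119.9, 18.3 and 12.3 CPM in the wild-type siblings. Of these genes, 11 had enough counts to test. The 8 neuronal markers summed to 1457, 2799 and 2848 CPM in the mutants and 1465, 2664 and 2964 CPM in the wild-type siblings. Results are therefore also given within same-numbered pairs of libraries. The targeted gene, srrm4, had 18.7, 58.7 and 57.9 CPM in mutant replicates 1, 2 and 3, against 14.6, 53.6 and 55.1 CPM in wild-type replicates 1, 2 and 3. It was present in both genotypes, and its groups overlapped (log2 fold change 0.13 ± 0.62 SE, edgeR adjusted p = 1.0), so its level does not check the genotype labels.

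Respiratory chain genes took nearly the same share of all counts in mutant and wild-type heads. The 101 nuclear genes took 1.65%, 1.13% and 1.09% of all counts in mutant replicates 1, 2 and 3, against 1.67%, 1.15% and 1.096% in wild-type replicates 1, 2 and 3. The 13 mitochondrial genes took 2.47%, 3.51% and 3.90% in the mutants, against 2.42%, 3.81% and 3.87% in the wild-type siblings. In both genotypes replicate 1 had the highest nuclear and the lowest mitochondrial share, and the genotypes overlapped for both shares. The mean mitochondrial share was 3.29% ± 0.740 in mutants and 3.37% ± 0.821 in wild-type siblings (SD, n = 3 each), a difference of -0.073 percentage points that is smaller than either SD. The mean nuclear share was 1.29% ± 0.314 in mutants and 1.30% ± 0.315 in wild-type siblings (SD, n = 3 each), a difference of -0.015 points. Within pairs, the mitochondrial share differed by 0.051, -0.30 and 0.034 points and the nuclear share by -0.015, -0.025 and -0.0055 points. The 95% Wilson intervals of single shares reached at most 0.0042 points to either side and cover counting error only. Poly(A)-selected libraries of whole heads cannot tell fewer cells of a type from less RNA per cell.

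**Figure D1:**
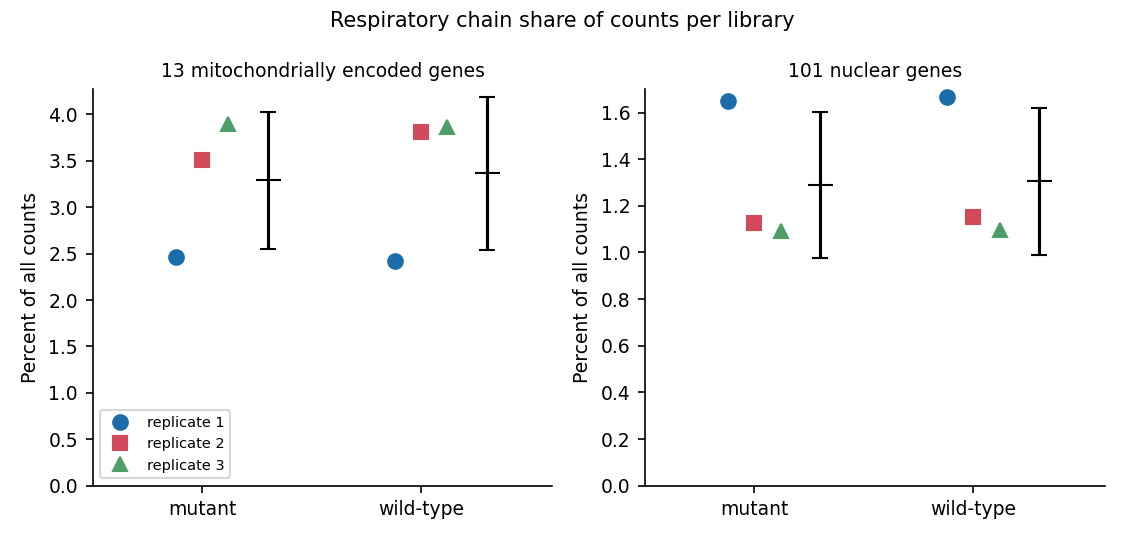
Percent of all counts per library in the 13 mitochondrially encoded genes (left) and the 101 nuclear genes (right), for mutant and wild-type heads; symbols mark the replicate number, and bars show mean and SD (n = 3). Both replicate 1 libraries lie at the low end on the left (2.47% and 2.42%) and at the high end on the right (1.65% and 1.67%), in either genotype.

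No respiratory chain gene passed the threshold between the genotypes in the test across all genes. The edgeR quasi-likelihood test called 0 of 24765 genes at an adjusted p under 0.05 (0.0%), with 70 genes (0.283%) under an unadjusted p of 0.05, none of them a member. With the replicate number as a block it again called 0 genes (0.0%), and the same fit in DESeq2 called 17 (0.0686%), none of them a member. Under an unadjusted p of 0.05 the blocked edgeR fit held 5 of the 114 members, 1 higher and 4 lower in mutants, beside 4.6% of all genes tested, a share close to that background. In DESeq2 with the block, 0 of the 114 members were under that unadjusted threshold, beside 1.6% of all genes tested, so the 95% interval of each of these 5 included 0 there. The smallest blocked adjusted p among the members was 0.939 in edgeR. The median log2 fold change was -0.012 over the nuclear members and -0.0063 over the mitochondrial members, beside 0.00041 over all genes tested. Within the 3 pairs, the nuclear median was -0.012, 0.0020 and -0.0045 and the mitochondrial median 0.047, -0.12 and -0.0027.

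Intervals within pairs were narrow for most members. The 95% interval of the log2 fold change in the blocked edgeR fit lay within 0.2 of 0, which is a fold of 1.15, for 91 of the 114 members, beside 33.3% of all genes tested. In DESeq2 with the block it did so for 75 members, beside 14.7% of all genes tested. Interval width depends on read depth, and the genes tested were not matched to the members for it. These shares therefore do not show that the members were steadier than other genes. Within 0.5 of 0 lay 109 members in edgeR. The 5 outside that bound were ndufa9b, ndufs8b, sdhda, cox5b2 and cox6a2, all with few counts. No member had every mutant library above or every mutant library below all wild-type libraries, beside 2.04% of all genes tested. Replicate 1 lay above the mean of replicates 2 and 3 in both genotypes for 95 of the 101 nuclear members (median log2 difference 0.95). Full separation of such genes would need a genotype difference larger than that gap. Overlap of the genotypes, here and for single genes, therefore says little about smaller genotype differences. Setting a difference between genotypes against the spread between replicates, which includes that gap, is limited in the same way. Mutants were higher in all 3 pairs for 16 members (13.1% of all genes tested) and lower in all 3 pairs for 21 members (13.8% of all genes tested).

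**Figure D2:**
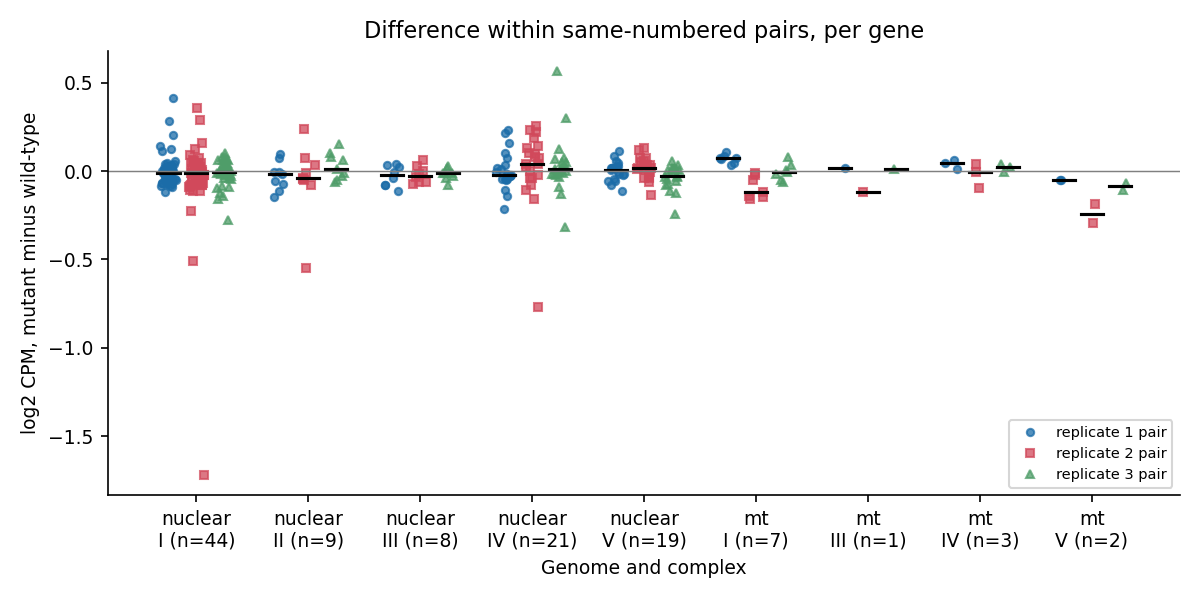
Difference in log2 CPM, mutant minus wild-type, within each same-numbered pair for every member, by genome (mt, mitochondrial) and complex; short lines are medians. Most points lie close to 0, and the 4 far below it in the replicate 2 pair are the low-count genes ndufs8b, cox6a2, sdhda and ndufa9b. The mitochondrial genes of complex I lie above 0 in the replicate 1 pair and below 0 in the replicate 2 pair, as do mt-co1, mt-co3 and mt-cyb.

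Complex I takes electrons from NADH. Its nuclear members had 6 genes higher in mutants in all pairs and 7 lower, of 44, beside 13.1% and 13.8% of all genes tested. Ndufv1 carries the flavin that accepts the electrons, and it had 283, 187 and 182 CPM in mutant replicates 1, 2 and 3, against 293, 202 and 182 CPM in wild-type replicates 1, 2 and 3. Replicate 1 was the highest library of each genotype and the genotypes overlapped. The largest iron-sulfur subunit, ndufs1, had 275, 184 and 180.0 CPM in mutants, against 269, 196 and 183 CPM in wild-type siblings. Ndufs7 holds the iron-sulfur cluster next to the quinone and differed by 0.0038, -0.071 and 0.0013 within pairs (log2, mutant minus wild-type). Its partner ndufs8a had 136, 136 and 124 CPM in mutants, against 136, 136 and 124 CPM in wild-type siblings, nearly equal within each pair. The 4 nuclear complex I genes with the smallest p in the edgeR fit without the block were ndufs8b, ndufaf4, ndufv3 and ndufaf3. None of these p-values was small, the lowest being 0.68 (unadjusted).

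Of these 4, ndufs8b, a paralog of ndufs8a, had 0.820, 0.224 and 1.06 CPM in mutants, against 0.611, 0.790 and 1.07 CPM in wild-type siblings. The low value of mutant replicate 2 made its largest pair difference. The assembly factor ndufaf4 had 12.5, 7.57 and 6.05 CPM in mutants, against 11.5, 6.19 and 5.83 CPM in wild-type siblings, higher in mutants in every pair (log2 differences of 0.12, 0.29 and 0.055), with overlapping groups. Ndufv3, a small accessory subunit beside the flavin subunit, had 55.4, 34.4 and 32.0 CPM in mutants, against 48.1, 33.8 and 31.6 CPM in wild-type siblings, and its pair differences were 0.20, 0.023 and 0.014. Ndufaf3 acts early in complex I assembly and works with ndufaf4. It had 75.8, 38.5 and 38.4 CPM in mutant replicates 1, 2 and 3, against 82.5, 45.0 and 40.9 CPM in wild-type replicates 1, 2 and 3. Mutants were lower in each pair, with log2 differences of -0.12, -0.23 and -0.093, and the groups overlapped, with replicate 1 the highest library in both genotypes. The log2 fold change of ndufaf3 was -0.14 ± 0.39 SE (edgeR adjusted p = 1.0). Its blocked value was -0.15 ± 0.046 SE (95% interval -0.25 to -0.038, unadjusted p = 0.015, edgeR adjusted p = 0.939), while DESeq2 with the block gave an interval of -0.30 to 0.016 (unadjusted p = 0.0777).

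Complex II, succinate dehydrogenase, is also an enzyme of the tricarboxylic acid cycle and has no mitochondrially encoded subunit. Sdha, the flavoprotein that oxidizes succinate, had 189, 161 and 149.7 CPM in mutant replicates 1, 2 and 3, against 191, 170.4 and 155 CPM in wild-type replicates 1, 2 and 3. The iron-sulfur subunit sdhb had 163, 86.4 and 82.6 CPM in mutants, against 164, 88.7 and 84.1 CPM in wild-type siblings. Both were lower in mutants in all 3 pairs, with log2 differences of -0.015, -0.078 and -0.049 for sdha and -0.0080, -0.038 and -0.026 for sdhb. These differences were less than the spread between libraries of either genotype, which includes the replicate 1 difference that the pairs remove. The membrane anchor sdhc had 102, 59.3 and 51.5 CPM in mutants, against 106, 56.4 and 51.8 CPM in wild-type siblings and the second anchor, sdhdb, 79.3, 56.3 and 55.4 CPM in mutants, against 79.6, 58.2 and 54.9 CPM in wild-type siblings. The paralog sdhda was scarce, with 1.37, 1.15 and 1.88 CPM in mutants, against 1.28, 1.70 and 1.78 CPM in wild-type siblings. Among the 4 assembly factors, sdhaf4 had 11.7, 10.3 and 8.33 CPM in mutants, against 12.3, 8.71 and 7.48 CPM in wild-type siblings, and sdhaf2, which attaches the flavin to sdha, had 25.0, 26.7 and 23.8 CPM in mutants, against 27.1, 27.5 and 22.2 CPM in wild-type siblings.

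Complex III passes electrons from coenzyme Q to cytochrome c. None of its 8 nuclear members was higher in mutants in all pairs, and 3 were lower, beside 13.1% and 13.8% of all genes tested. Counts over 8 genes are too small to show a direction. The Rieske iron-sulfur protein uqcrfs1 had 306, 199 and 184 CPM in mutant replicates 1, 2 and 3, against 301, 201 and 180.4 CPM in wild-type replicates 1, 2 and 3, and these groups overlapped. The core protein uqcrc1 had 347, 226 and 217 CPM in mutants, against 348, 236 and 219 CPM in wild-type siblings. The accessory subunit uqcr10 was lower in each pair (log2 differences of -0.11, -0.073 and -0.014), and so was uqcrb, which lies near a quinone-binding site (-0.076, -0.059 and -0.040). Uqcrq, which sits beside the mitochondrially encoded cytochrome b, differed by -0.076, 0.060 and 0.019.

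Complex IV, cytochrome c oxidase, reduces oxygen. Among its 21 nuclear members 5 were higher and 4 lower in mutants in all pairs, beside 13.1% and 13.8% of all genes tested. The regulatory subunit cox4i1 had 478, 276 and 267 CPM in mutant replicates 1, 2 and 3, against 488, 281 and 269.7 CPM in wild-type replicates 1, 2 and 3, and its pair differences of -0.031, -0.022 and -0.015 were small beside the spread between replicates. Cox6b2, which in mammals is named as a testis form, had 422, 207 and 189 CPM in mutants, against 431, 196 and 187 CPM in wild-type siblings. Cox5b2, a paralog of the zinc-binding subunit 5B, had 8.18, 1.03 and 1.35 CPM in mutant replicates 1, 2 and 3, against 6.95, 0.858 and 0.907 CPM in wild-type replicates 1, 2 and 3. In each pair the mutant was the higher library, with log2 differences of 0.23, 0.26 and 0.57, and replicate 1 was far above the others in both genotypes. Its log2 fold change was 0.27 ± 1.13 SE (edgeR adjusted p = 1.0), and the blocked value 0.35 ± 0.13 SE (95% interval 0.041 to 0.65, unadjusted p = 0.031, edgeR adjusted p = 0.939). DESeq2 with the block gave an interval of -0.025 to 0.73 (unadjusted p = 0.0669). Cox5b2 rests on few reads, 92 counts in mutant replicate 2 against 88 in wild-type replicate 2.

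Ndufa4 was long counted with complex I and is in mammals a subunit of complex IV, where it is placed here with its relatives. It had 87.8, 102 and 116 CPM in mutant replicates 1, 2 and 3, against 102, 105 and 117 CPM in wild-type replicates 1, 2 and 3. The lowest value was that of mutant replicate 1. Its pair differences were -0.22, -0.040 and -0.014, while those of its paralog ndufa4l were 0.017, 0.081 and 0.073. Cox7a2l, which in mammals joins complexes III and IV into supercomplexes, had 53.0, 40.4 and 39.6 CPM in mutants, against 58.4, 42.6 and 40.1 CPM in wild-type siblings, lower in each pair (log2 differences of -0.14, -0.077 and -0.019).

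Complex V makes ATP. The catalytic subunit atp5f1b had 1820.0, 1156 and 1017 CPM in mutant replicates 1, 2 and 3, against 1824, 1189 and 1076 CPM in wild-type replicates 1, 2 and 3, and its partner atp5fa1 had 1397, 964 and 783 CPM in mutants, against 1374, 951 and 846 CPM in wild-type siblings. Replicate 1 was the highest in either genotype and the genotypes overlapped for both genes. Atp5f1d, in the central stalk, differed by 0.083, 0.074 and 0.0047 within pairs, and atp5mea, which like atp5meb belongs to the membrane part of the enzyme, by -0.056, 0.13 and -0.24. Atp5meb had 155, 94.9 and 88.7 CPM in mutant replicates 1, 2 and 3, against 168, 104 and 96.5 CPM in wild-type replicates 1, 2 and 3. All 3 mutant libraries were below their same-numbered wild-type library by nearly the same amount, with log2 differences of -0.11, -0.14 and -0.12. The log2 fold change of atp5meb was -0.12 ± 0.31 SE (edgeR adjusted p = 1.0), and the blocked value -0.12 ± 0.037 SE (95% interval -0.21 to -0.037, unadjusted p = 0.012, edgeR adjusted p = 0.939). DESeq2 with the block gave an interval of -0.26 to 0.022 (unadjusted p = 0.0984). Reads of atp5mea and atp5meb could be split between the paralogs by the counting, and the sum was not tested. The inhibitor atp5if1a, which blocks ATP breakdown when respiration fails, had 124, 43.4 and 44.8 CPM in mutants, against 114, 44.4 and 45.0 CPM in wild-type siblings, and atp5if1b had 119.6, 53.9 and 51.8 CPM in mutants, against 115, 56.3 and 52.8 CPM in wild-type siblings.

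Among the mitochondrial genes, those of complex V were the lowest in mutants relative to the wild-type siblings. Mt-atp6, which forms the proton path of the ATP synthase, had 3048, 4049 and 4770.2 CPM in mutant replicates 1, 2 and 3, against 3159.6, 4609.6 and 4993 CPM in wild-type replicates 1, 2 and 3. The level differed between replicates of a genotype more than between genotypes, and mutants were lower in each pair, with log2 differences of -0.052, -0.19 and -0.066. Mt-atp8, a small subunit whose reading frame overlaps that of mt-atp6, had 902, 1269 and 1661 CPM in mutant replicates 1, 2 and 3, against 933, 1555 and 1789.6 CPM in wild-type replicates 1, 2 and 3, also lower in each pair (-0.049, -0.29 and -0.11). Their log2 fold changes were -0.11 ± 0.35 SE and -0.16 ± 0.37 SE (edgeR adjusted p = 1.0 for both). The blocked fit gave -0.10 ± 0.038 SE for mt-atp6 (95% interval -0.19 to -0.013, unadjusted p = 0.031) and -0.15 ± 0.051 SE for mt-atp8 (95% interval -0.27 to -0.028, unadjusted p = 0.023), both with an edgeR adjusted p of 0.939. In DESeq2 with the block the intervals included 0, at -0.24 to 0.041 for mt-atp6 (unadjusted p = 0.169) and -0.30 to 0.0054 for mt-atp8 (unadjusted p = 0.0587). As a share of the counts of the 13 mitochondrial genes, mt-atp6 took 10.6, 12.1 and 13.5 percent in mutant replicates 1, 2 and 3, against 11.3, 12.9 and 14.1 percent in wild-type replicates 1, 2 and 3, lower in mutants in each pair. Because the reading frames overlap, the 2 genes are not independent and their counts may share reads. They do not count as 2 separate differences.

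Photoreceptor markers moved with these genes across the libraries. The 8 markers, none at 0, summed to 995, 1191 and 1633 CPM in mutant replicates 1, 2 and 3 and to 1021, 1402 and 1839.6 CPM in wild-type replicates 1, 2 and 3. They were lowest in replicate 1 and highest in replicate 3 of both genotypes, as mt-atp6 and mt-atp8 were. This order was not particular to photoreceptors. The neuronal markers had it too, with 1457, 2799 and 2848 CPM in mutants and 1465, 2664 and 2964 CPM in wild-type siblings. Median pair differences of the photoreceptor markers were -0.059, -0.24 and -0.093 (log2, mutant minus wild-type), and 4 of 8 were lower in mutants in all pairs (13.8% of all genes tested). Those of the neuronal markers were 0.0069, 0.060 and -0.074. None of the 8 photoreceptor markers passed the adjusted threshold in edgeR, with or without the block, or in DESeq2 with the block. Under an unadjusted p of 0.05 in the blocked edgeR fit were 3 of 8, all lower in mutants, beside 4.6% of all genes tested. Without the block 0 of 8 were, beside 0.283% of all genes tested. Their unadjusted p in DESeq2 with the block is not given here. The part of these cells in the result was not tested.

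For the other 11 mitochondrial genes the sign differed between pairs except for mt-co2. Mt-co1, the catalytic subunit of complex IV, had 8899, 9772 and 10269.6 CPM in mutant replicates 1, 2 and 3, against 8533, 10440.4 and 10093 CPM in wild-type replicates 1, 2 and 3. Mt-co2, which receives electrons from cytochrome c, had 3271, 3995 and 3906 CPM in mutants, against 3168, 3893 and 3798 CPM in wild-type siblings, higher in mutants by 0.047, 0.037 and 0.040. Mt-co3, the third core subunit, had 4240.4, 4159 and 4202 CPM in mutants, against 4201, 4177 and 4212 CPM in wild-type siblings, all within 4159 to 4240 CPM. Mt-cyb, the cytochrome b of complex III, had 2049, 2699 and 2929 CPM in mutants, against 2026, 2934 and 2909 CPM in wild-type siblings, with pair differences of 0.016, -0.12 and 0.0099.

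The 7 mitochondrial complex I genes followed one pattern, with mutants above wild-type siblings in the replicate 1 pair and below them in the replicate 2 pair. This pattern was not particular to complex I. Mt-co1 (0.061 and -0.095), mt-co3 (0.013 and -0.0060) and mt-cyb (0.016 and -0.12) had the same signs in these pairs. Mt-nd1 differed by 0.074, -0.053 and 0.034 and mt-nd2 by 0.076, -0.020 and -0.049. Mt-nd3 differed by 0.036, -0.012 and 0.077, mt-nd4l by 0.085, -0.16 and -0.062 and mt-nd4 by 0.045, -0.12 and -0.015. The overlapping reading frames of mt-nd4l and mt-nd4 make that pair of genes uncertain in the same way. Mt-nd5 differed by 0.069, -0.15 and -0.0027. Mt-nd6, which is encoded on the opposite strand, differed by 0.11, -0.14 and 0.0041, and the strand setting of the counting is not given in the sources used here, so its reads may include those of the other strand.

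**Figure D3:**
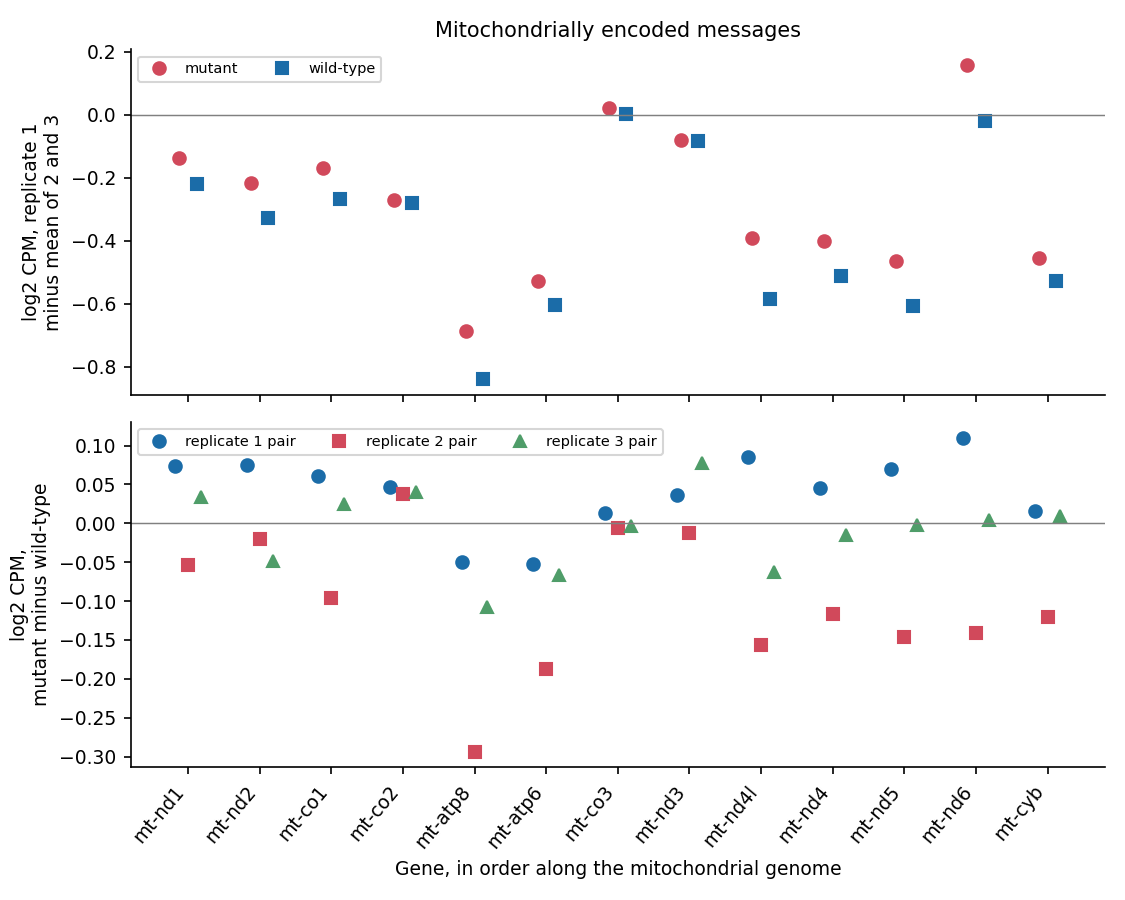
The 13 mitochondrially encoded genes in their order along the mitochondrial genome. The upper panel gives log2 CPM (TMM scale) of replicate 1 minus the mean of replicates 2 and 3 in mutant and wild-type heads, lowest for mt-atp8 in both (-0.69 and -0.84); the lower panel gives mutant minus wild-type within each pair, where mt-atp8 and mt-atp6 lie below 0 in all 3 pairs.

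The replicate number separated the members far more than the genotype did, in opposite directions for the nuclear and mitochondrial genes. Both replicate 1 libraries had more nuclear and less mitochondrial chain RNA than replicates 2 and 3. These differences are descriptions without a test, since a replicate number is not a condition of the study. Replicate 1 lay above the mean of replicates 2 and 3 in both genotypes for 95 of the 101 nuclear members (43.2% of all genes tested) and by more than 2-fold for 40 of them (5.46% of all genes tested). Replicate 1 lay below in both genotypes for 4 nuclear members (44.3% of all genes tested), ndufa4, ndufa4l2a, sdhaf1 and sdhda, and in the remaining nuclear members, ndufs8b and sdhaf2, the genotypes disagreed in sign. None of the 114 members was more than 2-fold lower in both genotypes, beside 5.01% of all genes tested. The nuclear median was 0.95 on the log2 scale, a fold of 1.93, and 0.93 in mutants and 0.96 in wild-type siblings taken alone, beside -0.0098 over all genes tested. Of the 13 mitochondrial members, 11 were below in both genotypes, and the median over the 13 was -0.28. The exceptions were mt-co3, above in both genotypes by 0.020 in mutants and 0.0024 in wild-type siblings, and mt-nd6, in which the genotypes disagreed in sign (0.16 in mutants and -0.021 in wild-type siblings).

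The scaling sets the zero point of these values. It shifts all genes of a library nearly alike, so values relative to the median of all genes hardly depend on it. Their agreement between scalings is therefore no separate check. By library totals alone the median of all genes tested moved to -0.33, and relative to it the nuclear median was 0.96 and the mitochondrial median -0.27, against 0.96 and -0.27 with TMM. On that scale 89 nuclear members were above and 8 below in both genotypes, 9 were more than 2-fold higher, and all 13 mitochondrial members were below, including mt-co3, at -0.31 there and 0.011 with TMM, and mt-nd6, at -0.26 there and 0.068 with TMM, the mean of opposite signs in the genotypes. The ratio of summed mitochondrial to summed nuclear chain counts needs no scaling between libraries. It was 1.49, 3.11 and 3.58 in mutant replicates 1, 2 and 3, against 1.45, 3.31 and 3.53 in wild-type replicates 1, 2 and 3. In each genotype replicate 1 was lower than the other libraries by more than 2-fold, and the genotypes overlapped.

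**Figure D4:**
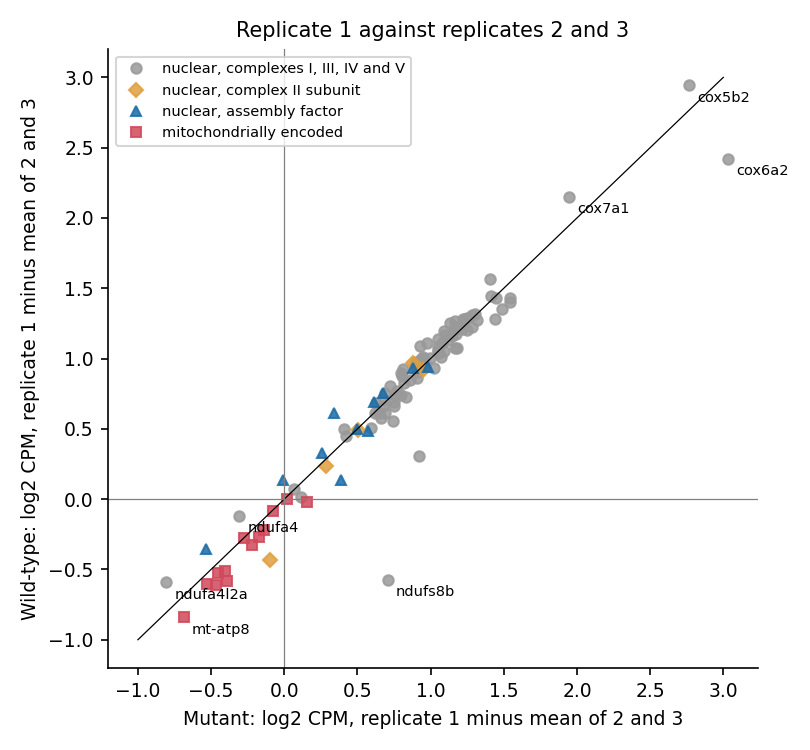
Log2 CPM (TMM scale) of replicate 1 minus the mean of replicates 2 and 3 for each of the 114 members, in mutants (horizontal axis) and wild-type siblings (vertical axis), with the line of equality. Members lie close to the line except some low-count genes such as ndufs8b and cox6a2, nuclear genes mostly near 1 and mitochondrial genes (squares) mostly below 0.

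The nuclear excess in replicate 1 differed in size between complexes and between kinds of gene. Median log2 differences were 0.92 for complex I, 0.47 for complex II, 0.97 for complex III, 1.04 for complex IV and 1.05 for complex V. Structural subunits had a median of 0.97 (87 genes) and assembly factors one of 0.50 (11 genes). The 2 inhibitors of complex V were at 1.42 for atp5if1a and 1.13 for atp5if1b. The muscle and posterior Hox markers given above were also higher in both replicate 1 libraries, 14 of 14 muscle markers with a median of 2.37 and 11 of 11 Hox genes with a median of 2.78, and 7 of 8 neuronal markers were lower, with a median of -0.82. Epidermal (4 of 4) and red blood cell markers (6 of 6) were higher too, as were 4 of 6 heart muscle markers, beside 43.2% of all genes tested. All 8 photoreceptor markers were lower, with a median of -0.55, beside 44.3% of all genes tested. The part of these cells in the differences was not tested.

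Single genes show the range. Ndufs5, an accessory subunit of complex I, had 135, 47.4 and 45.6 CPM in mutant replicates 1, 2 and 3, against 132, 51.2 and 48.5 CPM in wild-type replicates 1, 2 and 3, which is 2.78-fold. Ndufa2, another accessory subunit, had 78.9, 31.4 and 26.6 CPM in mutants, against 73.0, 28.2 and 26.0 CPM in wild-type siblings. It was higher in mutants in each pair, with log2 differences of 0.11, 0.16 and 0.032 (blocked edgeR unadjusted p = 0.064, adjusted p = 0.939). DESeq2 with the block gave an unadjusted p of 0.205. In complex III, the log2 difference between replicate 1 and the others was 1.23 for uqcrb and 1.19 for uqcrq. In complex V, atp5po, which helps join the catalytic head to the membrane part, had 600.2, 256 and 237 CPM in mutants, against 582, 253 and 244 CPM in wild-type siblings. At the other end, ndufs8a (0.068), sdha (0.26) and cox4i2 (0.064) had smaller differences, on the same log2 scale. All 3 were negative by library totals alone, ndufs8a and cox4i2 at -0.26 and sdha at -0.063.

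The mitochondrial messages did not move as a block either. In their order along the genome, replicate 1 differed from replicates 2 and 3 by -0.18 for mt-nd1, -0.27 for mt-nd2, -0.22 for mt-co1 and -0.28 for mt-co2. The next genes, mt-atp8 and mt-atp6, had the lowest values, -0.76 and -0.57, and were followed by mt-co3 and mt-nd3 near 0 (0.011 and -0.081 with TMM). Mt-nd4l was at -0.49, mt-nd4 at -0.46, mt-nd5 at -0.54 and mt-cyb at -0.49, while mt-nd6 of the opposite strand was at 0.068 with TMM. The neighbours mt-atp6 and mt-co3 lay far apart, and by library totals alone all 13 values were negative, mt-co3 at -0.31 and mt-nd6 at -0.26.

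On the TMM scale, adding both genomes evened out some complexes. Complex IV summed to 20011, 19851 and 20206 CPM in mutant replicates 1, 2 and 3 and to 19538, 20379 and 19917 CPM in wild-type replicates 1, 2 and 3. Complex III summed to 3873, 3739 and 3903 CPM in the mutants and 3868, 3993 and 3893 CPM in the wild-type siblings. In both, no library stood out. Complex V summed to 12620, 10191 and 10762 CPM in the mutants and 12786, 11023 and 11272 CPM in the wild-type siblings. Complex I summed to 10850, 10029 and 9981 CPM in the mutants and 10581, 10559 and 10022 CPM in the wild-type siblings. In complexes I and V replicate 1 was still the highest in each genotype, narrowly for complex I in the wild-type siblings. Complex II, with nuclear genes only, summed to 589.8, 417 and 389 CPM in the mutants and 599.5, 427 and 393 CPM in the wild-type siblings, with replicate 1 the highest in each genotype. These sums are dominated by the most abundant messages and are not numbers of complexes.

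Several subunits exist as paralogs that vertebrates use in different tissues or oxygen levels, and for several pairs the balance differed between replicate 1 and the others. The genes below whose mammalian relatives are muscle forms had lower CPM outside replicate 1, and cox6a2 had few counts there. Cox6a2 had 5.10, 0.391 and 0.922 CPM in mutant replicates 1, 2 and 3, against 4.38, 0.682 and 0.935 CPM in wild-type replicates 1, 2 and 3, 6.63-fold higher in replicate 1, and cox7a1 had 5.61, 1.62 and 1.28 CPM in mutants, against 6.05, 1.74 and 1.03 CPM in wild-type siblings, 4.13-fold higher. Cox8b, whose mammalian relative is a heart and muscle form, had 14.5, 5.92 and 4.18 CPM in mutants, against 13.0, 5.41 and 4.28 CPM in wild-type siblings. Their broadly expressed counterparts were also higher in replicate 1, by smaller log2 differences of 1.04 for cox6a1, 1.26 for cox7a2a and 1.04 for cox8a. Cox5b2 had the widest gap of all members, 7.24-fold, followed by cox6a2.

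Counts of cox4i2, in mammals a form induced by low oxygen, were 5.60, 8.08 and 10.2 percent of those of cox4i1 in mutant replicates 1, 2 and 3, against 5.57, 8.88 and 10.8 percent in wild-type replicates 1, 2 and 3. Ndufa4 counts were 34.3, 58.5 and 73.6 percent of ndufa4l counts in the mutants, against 40.3, 63.6 and 78.1 percent in the wild-type siblings, lower in mutants in each pair and lowest in replicate 1. Ndufa4l2a, related to a mammalian gene induced by low oxygen, had 2.64, 4.85 and 4.43 CPM in mutants, against 2.72, 4.15 and 4.06 CPM in wild-type siblings and was the nuclear member lowest in replicate 1 (-0.70). For the membrane ring of the ATP synthase, atp5mc3a counts were 31.3, 54.2 and 50.4 percent of atp5mc3b counts in the mutants, against 30.1, 52.0 and 54.2 percent in the wild-type siblings. Atp5mc1 counts were 48.2, 63.7 and 60.2 percent of atp5mc3b counts in the mutants, against 47.6, 61.7 and 63.1 percent in the wild-type siblings.

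Cox5aa and cox5ab kept their balance closely across libraries. Cox5aa counts were 218, 221 and 219 percent of cox5ab counts in the mutants, against 212, 215 and 221 percent in the wild-type siblings. Cox6b1 counts were 25.3, 26.9 and 31.2 percent of cox6b2 counts in the mutants, against 25.6, 27.5 and 34.5 percent in the wild-type siblings, and atp5if1a counts were 103, 80.5 and 86.6 percent of atp5if1b counts in the mutants, against 99.5, 78.9 and 85.3 percent in the wild-type siblings. In these ratios the genotypes overlapped. Ratios are of counts, not adjusted for length, and reads of near-identical paralogs may have been divided or dropped by the counting.

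**Figure D5:**
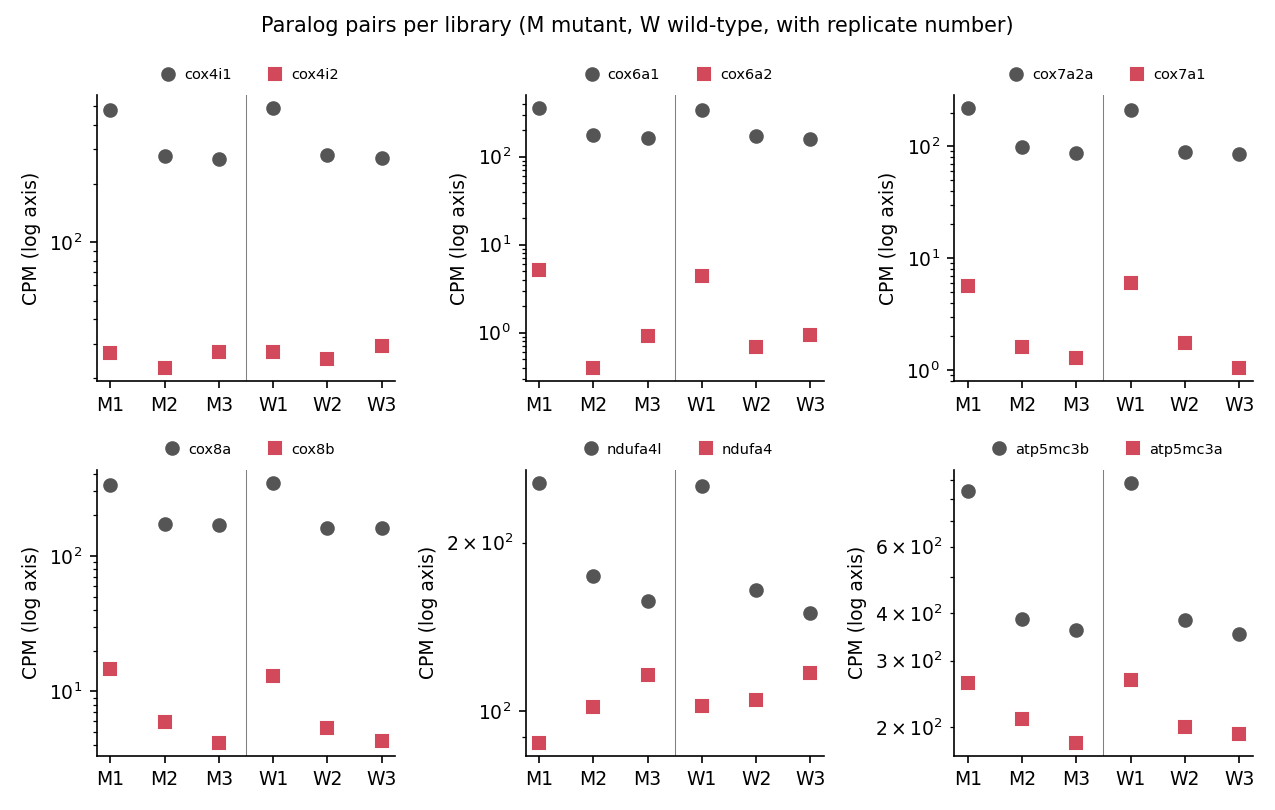
CPM (log axis) of 6 paralog pairs in each library, mutant replicates left (M1 to M3) and wild-type replicates right (W1 to W3). Levels are not per length and are read along each gene: cox6a2, cox7a1 and cox8b are highest in M1 and W1, and ndufa4 is lowest there while ndufa4l is highest.

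Genes outside the naming rule that serve the chain, or belong to it as cyc1 does, were also without a call between genotypes. The count was 0 in each of 8 lists (edgeR, 0.0% of all genes tested, without and with the block, and DESeq2 with the block). Under an unadjusted p of 0.05 in the blocked edgeR fit (4.6% of all genes tested), 0 of 6 tested genes of the rest of electron transport, 0 of 12 of coenzyme Q synthesis, 0 of 24 of mitochondrial transcription and RNA handling and 0 of 16 of the tricarboxylic acid cycle differed. Of 38 assembly factors outside the naming rule, 1 did: sco1, which delivers copper to complex IV, had 20.9, 15.8 and 14.3 CPM in mutants, against 18.2, 14.4 and 13.1 CPM in wild-type siblings. The transcription factor nrf1, which activates many nuclear chain genes, was the 1 of 11 regulators, with 44.3, 74.0 and 64.8 CPM in mutants, against 41.4, 60.7 and 61.9 CPM in wild-type siblings. Slc25a3a, a phosphate carrier, was the 1 of 13 carriers, porins and uncoupling proteins and was lower, with 24.9, 30.0 and 39.3 CPM in mutants, against 26.2, 35.4 and 43.6 CPM in wild-type siblings. In glycolysis 3 of 31 genes differed, the isomerase gpib higher with 29.7, 6.06 and 9.80 CPM in mutants, against 23.2, 5.72 and 7.98 CPM in wild-type siblings, and pfkpb and pfklb, both phosphofructokinases, lower. Pfkpb had 13.6, 20.2 and 24.8 CPM in mutants, against 15.6, 23.1 and 28.8 CPM in wild-type siblings, and pfklb had 33.6, 32.0 and 35.5 CPM in mutants, against 35.8, 38.2 and 42.6 CPM in wild-type siblings. None of these 6 passed after adjustment over all genes.

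Direction within pairs varied between these lists. Mutants were higher in all 3 pairs for 10 of the 38 assembly factors and lower for 2, beside 13.1% and 13.8% of all genes tested. In glycolysis 1 of 31 genes was higher and 11 lower in all pairs, and in the tricarboxylic acid cycle 0 of 16 were higher and 6 lower, among them idh3a and suclg1. Median log2 fold changes were 0.031 for the assembly factors, -0.048 for glycolysis and -0.031 for the tricarboxylic acid cycle, beside 0.00041 over all genes tested. Cytochrome c carries electrons between complexes III and IV, and cycsb had 387, 234 and 211 CPM in mutants, against 404, 226 and 212 CPM in wild-type siblings, whereas cycsa had no count in 5 libraries and a single library, mutant replicate 3, above 0. Cyc1, the cytochrome c1 of complex III, lies outside the naming rule and had 300.2, 197 and 176 CPM in mutants, against 291, 201 and 182 CPM in wild-type siblings.

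Between replicate 1 and the others these lists had smaller medians than the structural subunits (0.97), again as a description. Medians were 0.76 for the rest of electron transport, 0.73 for carriers, porins and uncoupling proteins, 0.51 for coenzyme Q synthesis, 0.47 for assembly factors outside the naming rule, 0.33 for the tricarboxylic acid cycle, 0.29 for glycolysis, 0.20 for mitochondrial transcription and RNA handling and -0.025 for the regulators. Single genes moved further and in both directions, from -1.03 to 2.43 among the carriers, -0.85 to 2.32 in glycolysis and -1.35 to 1.29 in the tricarboxylic acid cycle. More than 2-fold higher in both genotypes were 5 of 13 carriers and 8 of 31 glycolysis genes, beside 5.46% of all genes tested. The ADP/ATP carrier slc25a4, whose mammalian relative is the heart and muscle form, stood highest among the carriers, with 669.5, 136 and 94.6 CPM in mutants, against 625, 180.1 and 89.8 CPM in wild-type siblings. Tfam, which packages and transcribes mitochondrial DNA, had 36.3, 28.4 and 29.5 CPM in mutants, against 36.3, 28.7 and 26.6 CPM in wild-type siblings, and the mitochondrial RNA polymerase polrmt had 12.9, 14.5 and 13.8 CPM in mutants, against 13.0, 14.7 and 14.0 CPM in wild-type siblings. Lrpprc, which stabilizes mitochondrial messages, was lower in replicate 1 of both genotypes, with 107, 135 and 129 CPM in mutants, against 98.8, 139.8 and 128 CPM in wild-type siblings. Nrf1 was lower there too, while the coactivator ppargc1a differed by 0.37.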

How the data were processed

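Heads of 3-day-old srrm4[y712] homozygous mutants and wild-type siblings were sequenced with a TruSeq stranded mRNA kit after RNA isolation with either of a pair of kits, per the labels' protocols. The authors deposited raw counts per gene for 6 libraries and a normalized signal per gene, which equals the counts divided by 1 factor per library to within 0.0727. The submitters' processing notes name the build GRCz11 and the tools STAR 2.7.3, Subread, featureCounts 1.6.4 and DESeq2, with no step assigned to any of them. Annotation release, strand setting and the RNA kit of each library are not stated in the sources used here.

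Counts were tested with edgeR 4.0.16 (R 4.3.3): TMM factors, filterByExpr by genotype (24765 genes kept), the robust quasi-likelihood test with genotype as the only term, 2-sided, and Benjamini-Hochberg adjustment over all genes, with a threshold of 0.05. Log2 CPM used a prior count of 2. The replicate number was a block in an alternative fit. Across genes, deviations from the genotype mean correlated between the libraries of a pair at 0.863, 0.579 and 0.744 for replicates 1, 2 and 3. Unlike-numbered libraries also correlated, at 0.418 for mutant replicate 3 with wild-type replicate 2 and 0.365 for mutant replicate 2 with wild-type replicate 3. The numbers, which come from the labels, were taken to pair the libraries, less surely for replicates 2 and 3. Other alternatives used DESeq2 1.42.0, limma 3.58.1 (voom, and log2 of the deposited normalized values with a pseudocount of 1), other scalings and filters, and leaving out libraries or pairs. No 2 libraries were duplicates (mean chi-square per gene at least 4.92). The procedure was tested on simulated data with planted 2-fold changes, which does not show how it performs on smaller genotype differences. Figures were drawn with matplotlib 3.10.9.

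Members and lists were chosen with earlier results of these data known. Of 221 listed names, 211 matched a gene. Genes named are srrm4, all mitochondrial members, core subunits and paralog families. Per complex, so are the nuclear members with the 4 smallest p without the block, 2 highest mean CPM and 2 largest replicate 1 differences. Other genes were named after their values were seen, mostly as the exceptions of a count or the extremes of a list. 1 core subunit covered by that rule is not reported here. Gene sequences and coordinates were not used here.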

Additional observations from a re-analysis of the deposited data

How the results depend on the processing

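No respiratory chain gene passed the threshold under any alternative run. The replicate numbers were taken to pair the libraries. In edgeR with the replicate block 0 genes were called, as without it, with medians of -0.0093 over nuclear and -0.0089 over mitochondrial members. No member's call changed with the block in edgeR, DESeq2 or limma-voom. Genes called over the whole table numbered 0 in edgeR, 17 in DESeq2 with the replicate block against 0 without it, and 2 in edgeR with the block and without pair 2. The nuclear median, -0.012, was -0.0046 in DESeq2 with the block, 0.00061 in limma-voom, -0.0048 in limma on the normalized values and 0.0026, -0.0018 and -0.0016 with the block and without pair 1, 2 or 3. Leaving out single libraries unbalances the replicate numbers, so it moved most values. The nuclear median then ran from -0.41 to 0.38, the mitochondrial median from -0.10 to 0.059, the difference in mitochondrial share from -0.55 to 0.34 points and in the log2 ratio of mitochondrial to nuclear counts from -0.42 to 0.38. Log2 fold changes ran from -0.28 to 0.052 for mt-atp6, -0.39 to 0.039 for mt-atp8, -0.55 to 0.24 for ndufaf3, -1.27 to 1.97 for cox5b2, -0.42 to 0.17 for atp5meb and -0.27 to 0.50 for srrm4. Signs turned without mutant replicate 1 or wild-type replicate 3 for the mitochondrial share, the ratio, mt-atp6, mt-atp8 and cox5b2, without wild-type replicate 2 for that share, that ratio and cox5b2, and without wild-type replicate 1 or mutant replicate 3 for ndufaf3, atp5meb and srrm4, the last and ndufaf3 also without mutant replicate 2. Depth limits cox5b2, cox6a2, ndufs8b, ndufa9b and sdhda, whose intervals were the widest.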
